A study of Mus musculus with 7 samples.

Results

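The C-type lectins Clec7a, Clec4d, Clec4e, Clec4n, Clec4a1, Clec4a2, Clec4a3 and Clec12a were described in muscularis macrophages of the mouse small intestine after sham and pMCAO surgery. They were chosen by gene name, and all 8 were among the 17209 genes of the deposited count table. Sham 1 to Sham 4 are the 4 sham libraries, and pMCAO 1 to pMCAO 3 are the 3 libraries of operated mice, called stroke in the series title, all taken at 24 h. The labelled genotype of both groups was C57BL6/J, and in both the muscle layer was peeled from the whole small intestine and cells with GFP at the fractalkine receptor Cx3cr1 were sorted. Neither the age and sex of the mice nor the form of the GFP allele is given in the sources used here. Libraries are not tied to single mice by the labels, and pMCAO 3 is described as a pool, so p-values measure only the spread between libraries, which may be technical.

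C-type lectins of this kind are surface receptors with a single carbohydrate recognition domain, made mainly by macrophages, monocytes, neutrophils and dendritic cells. Activating members recruit the kinase Syk, either through a tyrosine motif in their own tail (Clec7a, the beta-glucan receptor Dectin-1) or through the adaptor Fcer1g. The second kind holds Clec4n (Dectin-2, a receptor of fungal mannans), Clec4d (MCL) and Clec4e (Mincle, which binds mycobacterial glycolipid and the nuclear protein Sap130 of dying cells). Syk then signals through Card9, Bcl10 and Malt1 to NF-kB. Inhibitory members carry a motif in the tail that recruits phosphatases, as do Clec4a2 (DCIR1) and Clec12a (MICL, a receptor of urate crystals). Clec4a3 (DCIR3) and Clec4a1 (DCIR4) are mouse paralogues of Clec4a2.

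The genes lie in 2 groups on chromosome 6 (GRCm38, GENCODE M21). The DCIR cluster runs from 122921848 to 123289870 in the order Clec4a1, Clec4a3, Clec4a2, Clec4n, Clec4d and Clec4e. Clec4e (ENSMUSG00000030142, 123281789 to 123289870) is on the minus strand and the other 5 are on the plus strand, Clec4d (ENSMUSG00000030144) from 123262111 to 123275265. The Dectin-1 cluster begins 6.05 Mb further on and holds Clec12a (ENSMUSG00000053063, 129342691 to 129365303, plus strand) and Clec7a (ENSMUSG00000079293, 129461591 to 129472779, minus strand). GENCODE M21 lists Clec7a as a polymorphic pseudogene and the other 7 as protein coding. No exon of the 8 overlapped an exon of another annotated gene. Windows of 100 bases, the read length of the study, were not shared with another gene's transcripts for 7 of the 8. For Clec4a2, 64 of 2990 windows (2.14%) also occur in Clec4a4.

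The bases before the start sites are shown for Clec7a, Clec4d and Clec4e, the 3 genes with the largest differences between groups, and for Clec4a1, whose means hardly differed. Each is the 250 bases before the RefSeq start site on the gene's own strand (GRCm38.p6). Capitals mark matches on either strand to 3 motifs. The core bound by PU.1 and other ETS factors was searched as GAGGAA. The motif of C/EBP factors was searched as TTNNGNAA. The TATA box, which places the start of transcription, was searched as TATAAA. These and the NF-kB consensus were chosen after the sequences had been seen. The positions on chromosome 6 are chr6:129472780-129473029 for Clec7a, chr6:123261857-123262106 for Clec4d, chr6:123289872-123290121 for Clec4e and chr6:122921598-122921847 for Clec4a1.
Clec7a: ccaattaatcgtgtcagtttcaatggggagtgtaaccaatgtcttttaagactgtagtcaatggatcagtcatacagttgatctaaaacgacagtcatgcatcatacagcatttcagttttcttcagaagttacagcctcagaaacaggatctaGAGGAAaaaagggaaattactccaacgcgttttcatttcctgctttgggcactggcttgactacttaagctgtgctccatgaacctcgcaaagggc
Clec4d: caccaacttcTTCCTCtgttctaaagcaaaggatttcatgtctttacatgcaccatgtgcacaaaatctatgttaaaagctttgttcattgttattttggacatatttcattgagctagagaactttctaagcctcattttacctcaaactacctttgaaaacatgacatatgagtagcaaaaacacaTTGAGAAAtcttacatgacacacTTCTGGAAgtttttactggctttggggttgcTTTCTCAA
Clec4e: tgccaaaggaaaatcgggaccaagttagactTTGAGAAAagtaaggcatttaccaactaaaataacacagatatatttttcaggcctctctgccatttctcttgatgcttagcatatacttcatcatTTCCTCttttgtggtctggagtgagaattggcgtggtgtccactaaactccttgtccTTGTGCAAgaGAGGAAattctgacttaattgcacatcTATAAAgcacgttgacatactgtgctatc
Clec4a1: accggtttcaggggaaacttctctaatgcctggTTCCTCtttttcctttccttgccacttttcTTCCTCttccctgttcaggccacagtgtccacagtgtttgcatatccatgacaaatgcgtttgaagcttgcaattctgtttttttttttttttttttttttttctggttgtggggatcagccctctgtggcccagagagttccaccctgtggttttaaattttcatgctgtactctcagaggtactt
The ETS core occurred in all 4 of these windows and in the windows of 25.9% of 27025 mouse genes. The C/EBP letters occurred 3 times for Clec4d and 2 times for Clec4e, and in 40.3% of all genes. A TATA box stood 29 bases before the Clec4e start (14.3% of genes), and the letters of the NF-kB consensus, found for 8.2% of genes, were in none of the 4 windows. Windows were available for 7 of the 8 genes, all but Clec4n. Of the windows not shown, the ETS core was in those of Clec12a and of start site 2 of Clec4a3. It was not in those of Clec4a2 and of start site 1 of Clec4a3. The C/EBP letters occurred as often for Clec4a2 and for Clec12a as for Clec4e, and TATAAA stood 161 bases before the Clec4a2 start. These motifs thus do not set apart the 3 genes with the largest differences.

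Counts assigned to listed genes were 12.7 to 34.4 M per library, and the 8 lectins had 67 to 12040 counts in a library. CPM values (counts scaled to library size) below are after TMM scaling, and differences are log2 changes, pMCAO minus sham, from the edgeR quasi-likelihood test over all 17209 genes adjusted by Benjamini-Hochberg, at a threshold of 0.05. Markers of the sorted cells were abundant: Cx3cr1 was at 137 to 299 CPM and Ptprc, the leukocyte gene CD45, at 1700 to 2550 CPM. Csf1r was at 1480 to 2780 CPM and Adgre1 (F4/80) at 816 to 1570 CPM over the 7 libraries. Cx3cr1 was at 207 to 299 CPM in sham and 137 to 222 CPM in pMCAO libraries (log2 change -0.55, adjusted p = 0.256 by edgeR). The log2 changes were -0.35 for Csf1r, -0.36 for Adgre1 and -0.02 for Ptprc (adjusted p = 0.496, 0.484 and 0.981 by edgeR). Among 9 measured fibroblast markers, all had higher means after pMCAO, and their summed level was 69.0 to 168 CPM in sham libraries and 109 to 550 CPM after pMCAO. All 10 blood endothelial markers did too, at 138 to 380 and 421 to 588 CPM in sum. Mitochondrial ribosomal RNA took 2.42% to 5.82% of counts in sham libraries and 8.26% to 12.6% after pMCAO. In bulk RNA, fewer cells of a type and less RNA per cell cannot be told apart.

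The DCIR paralogues were the most abundant of these lectins in both groups, and Clec4d and Clec4e the least. Per kilobase of exon, mean sham levels were 206 ± 46.2 CPM for Clec4a1 (SD, n = 4), 158 ± 26.5 for Clec4a3, 98.9 ± 14.6 for Clec4a2, 43.8 ± 3.49 for Clec4n, 41.9 ± 8.61 for Clec7a, 25.3 ± 7.18 for Clec12a, 6.35 ± 3.79 for Clec4d and 1.64 ± 1.52 for Clec4e. In that order the sham libraries of 3 neighbouring pairs overlapped, namely Clec4a1 with Clec4a3, Clec4n with Clec7a, and Clec4d with Clec4e. After pMCAO Clec7a, at 72.6 ± 16.3 CPM per kilobase (SD, n = 3), stood above Clec4n, at 37.8 ± 8.86, in each library. Exon length here is the union over all annotated transcripts, so a gene with long, rarely used exons (Clec4e, 4965 bases) is placed low on this scale.

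After pMCAO, 0 of the 8 lectins passed the threshold by edgeR, against 0.0988% of all genes (17 of 17209), of which 0.0697% were higher and 0.0291% lower. Clec7a, Clec4d and Clec4e had unadjusted p-values under 0.05, all with higher means. Of all genes 13.4% had such a p, 6.97% with higher and 6.47% with lower means. By other tools, 2 passed with DESeq2 (Clec4d, adjusted p = 0.0146, and Clec7a, adjusted p = 0.0227), 0 with limma-voom and 3 with limma-voom and sample quality weights. Over all genes these tools called 2.97%, 0.203% and 4.75%. Of the 8, 4 had higher and 4 had lower means (48.6% and 51.4% of all genes). Their median log2 change was 0.19, against -0.02 over all genes. For Clec7a alone the groups did not overlap, as was so for 12.6% of all genes, 5.99% with higher and 6.58% with lower values.

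**Figure D1:**
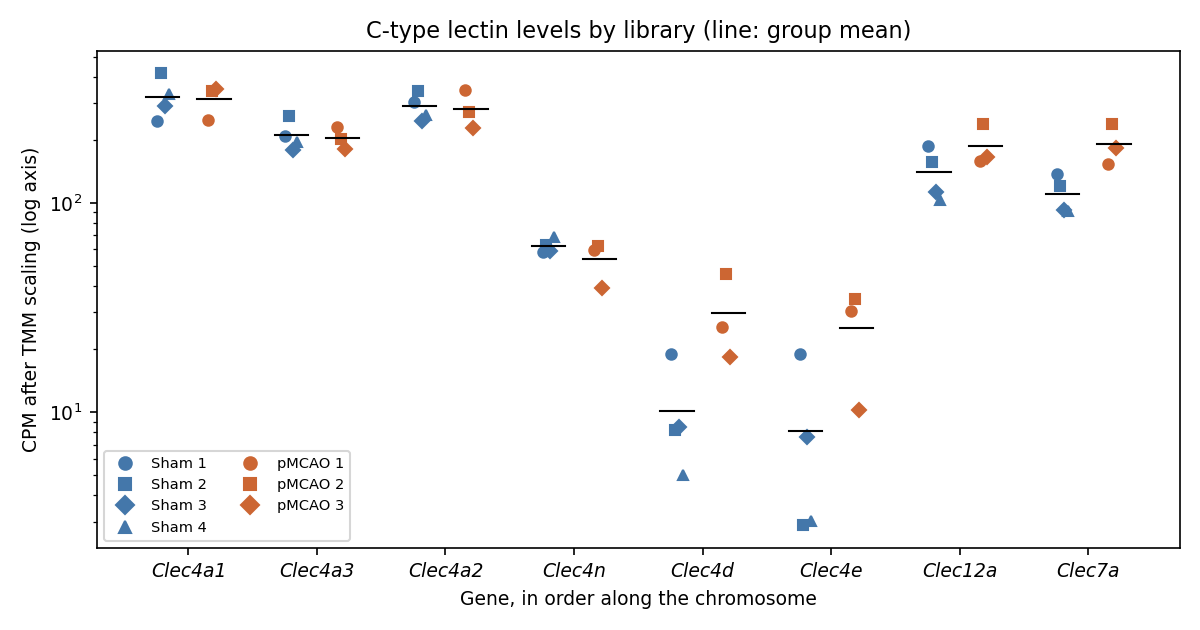
Level of each of the 8 lectins in each library, in CPM after TMM scaling on a log axis, with sham libraries in blue, pMCAO libraries in orange and a line at each group mean. Clec7a is higher in all 3 pMCAO libraries (154 to 239 CPM) than in all 4 sham libraries (91.0 to 138 CPM), while Sham 1 lies among the pMCAO values for Clec4d and Clec4e.

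Among the activating receptors, Clec7a was at 138, 120, 92.6 and 91.0 CPM in Sham 1 to Sham 4 and at 154, 239 and 182 CPM in pMCAO 1 to pMCAO 3. Every pMCAO library lay above every sham library, with the smallest gap between Sham 1 and pMCAO 1. The means were 110 ± 22.7 (SD, n = 4) and 192 ± 43.1 CPM (SD, n = 3), a log2 change of 0.80 (SE 0.20, adjusted p = 0.132 by edgeR). The highest level was in pMCAO 2, and without that library the log2 change was 0.61 (adjusted p = 0.169 by edgeR). That library also had the highest summed level of 7 large peritoneal macrophage markers, 430 CPM against 197 CPM in pMCAO 1, 58.3 CPM in pMCAO 3 and 47.1 to 61.9 CPM in sham libraries. Saa3 alone took 308 of the 430 CPM and 110 of the 197 CPM. With each marker given equal weight, as the mean log2 difference from the sham mean, the list was at 1.35, 2.04 and 0.29 in pMCAO 1 to pMCAO 3. Of the 7, 6 had higher means after pMCAO, and Gata6, which defines these cells, was not among the 17209 genes. The 2 measured adipocyte markers were highest in pMCAO 2 too, at 615 CPM in sum. They were at 251 CPM in pMCAO 1, 131 CPM in pMCAO 3 and 62.2 to 188 CPM in sham libraries. Fabp4 took 557 and Cfd 58.3 of the 615 CPM. The rest of the list of 8, Adipoq and Plin1 included, was not among the 17209 genes. The part of either cell type in the Clec7a level was not tested.

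Clec4d, which forms a complex with Mincle, was at 18.9, 8.17, 8.47 and 5.0 CPM in Sham 1 to Sham 4. In pMCAO 1 to pMCAO 3 it was at 25.6, 45.7 and 18.4 CPM. The groups overlapped only through Sham 1, which lay just above pMCAO 3, and the other 3 sham libraries were below 9 CPM. The log2 change was 1.57 (SE 0.42, adjusted p = 0.145 by edgeR). Without Sham 1 it was 2.06 and passed the threshold (adjusted p = 0.0493 by edgeR, as did 0.273% of all genes), and without pMCAO 2 it was 1.12 (adjusted p = 0.217 by edgeR).

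Clec4e was at 19.0, 2.88, 7.62 and 3.02 CPM in Sham 1 to Sham 4 and at 30.4, 34.6 and 10.2 CPM in pMCAO 1 to pMCAO 3. Sham 1 again lay between the pMCAO libraries, and the sham values spanned 6.59-fold from lowest to highest, the widest range of the 8 lectins. The log2 change was 1.63 (SE 0.65, adjusted p = 0.318 by edgeR), and 2.48 without Sham 1 (adjusted p = 0.0733). Clec4d and Clec4e ordered the libraries nearly alike: pMCAO 2, pMCAO 1, Sham 1 and pMCAO 3 were the 4 highest for both, in that order.

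Both genes are also made by monocytes and neutrophils, and markers of those cells varied between libraries. S100a8, an abundant neutrophil and monocyte protein, was at 29.5 CPM in Sham 1, 20.3 in pMCAO 1 and 19.2 in pMCAO 2, and at 0.151 to 1.18 CPM in the other 4 libraries. Of 10 monocyte markers, 7 had higher means after pMCAO. Their summed level was 3810 CPM in Sham 1, 2150 to 2570 CPM in the other sham libraries and 2820 to 4660 CPM after pMCAO. F13a1, a coagulation factor subunit that macrophages also make, took 1740 of the 2820 CPM of pMCAO 3. With each marker given equal weight, as the mean log2 difference from the sham mean, the monocyte list was at 0.83, -0.43, -0.17 and -0.23 in Sham 1 to Sham 4. On that scale it was at 0.97, 0.53 and -0.74 in pMCAO 1 to pMCAO 3, so pMCAO 3 was the lowest of the 7 libraries. The neutrophil genes Ly6g, Camp and Ltf were not among the 17209 genes. Of 7 measured neutrophil markers, 3 had higher means, and their summed level was 184 to 247 CPM in sham libraries and 118 to 201 CPM after pMCAO. With equal weights the neutrophil list too was highest in Sham 1 (1.19), pMCAO 1 (0.93) and pMCAO 2 (0.68), and lowest in pMCAO 3 (-1.01). In sum, however, Sham 1 was the lowest sham library, at 184 CPM. Among sham libraries Csf3r (61.2 CPM) and Mmp9 (59.3 CPM) were lowest in Sham 1, while S100a8, S100a9 (28.0 CPM), Cxcr2 and Mmp8 were highest there. Unlike S100a8, S100a9 had a lower mean after pMCAO (log2 change -0.86, adjusted p = 0.877 by edgeR). With a score of both marker lists as a covariate, a setting added after the data were seen, the log2 change was 1.48 for Clec4d (SE 0.35, adjusted p = 0.139 by edgeR) and 1.52 for Clec4e (SE 0.37, adjusted p = 0.143 by edgeR).

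Clec4n, the Dectin-2 receptor that lies next to Clec4d, was at 58.0, 63.1, 59.0 and 68.9 CPM in Sham 1 to Sham 4. In pMCAO 1 to pMCAO 3 it was at 59.6, 62.3 and 39.3 CPM. Only pMCAO 3 lay outside the sham range, below it. The log2 change was -0.21 (SE 0.21, adjusted p = 0.687 by edgeR), so no difference was shown.

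Among the inhibitory receptors and their paralogues, Clec12a was at 188, 156, 113 and 103 CPM in Sham 1 to Sham 4 and at 158, 238 and 166 CPM in pMCAO 1 to pMCAO 3. The groups overlapped, with Sham 1 above pMCAO 1 and pMCAO 3. The log2 change was 0.42 (SE 0.23, adjusted p = 0.437 by edgeR).

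Clec4a2, the DCIR1 receptor with an inhibitory motif, was at 305, 343, 247 and 264 CPM in Sham 1 to Sham 4 and at 345, 271 and 229 CPM in pMCAO 1 to pMCAO 3. Clec4a3 was at 208, 260, 178 and 195 CPM in sham libraries and at 230, 203 and 180 CPM after pMCAO. Both had their sham maximum in Sham 2 and their pMCAO maximum in pMCAO 1. Clec4a1 was at 247, 416, 290 and 331 CPM in sham libraries and at 250, 341 and 351 CPM after pMCAO. Its highest library was Sham 2 too, but among the pMCAO libraries pMCAO 1 was the lowest. The log2 changes of the 3 DCIR paralogues were -0.04, -0.04 and -0.03 in that order, with SE of 0.19, 0.18 and 0.20 and adjusted p of 0.948, 0.946 and 0.965 by edgeR.

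**Figure D2:**
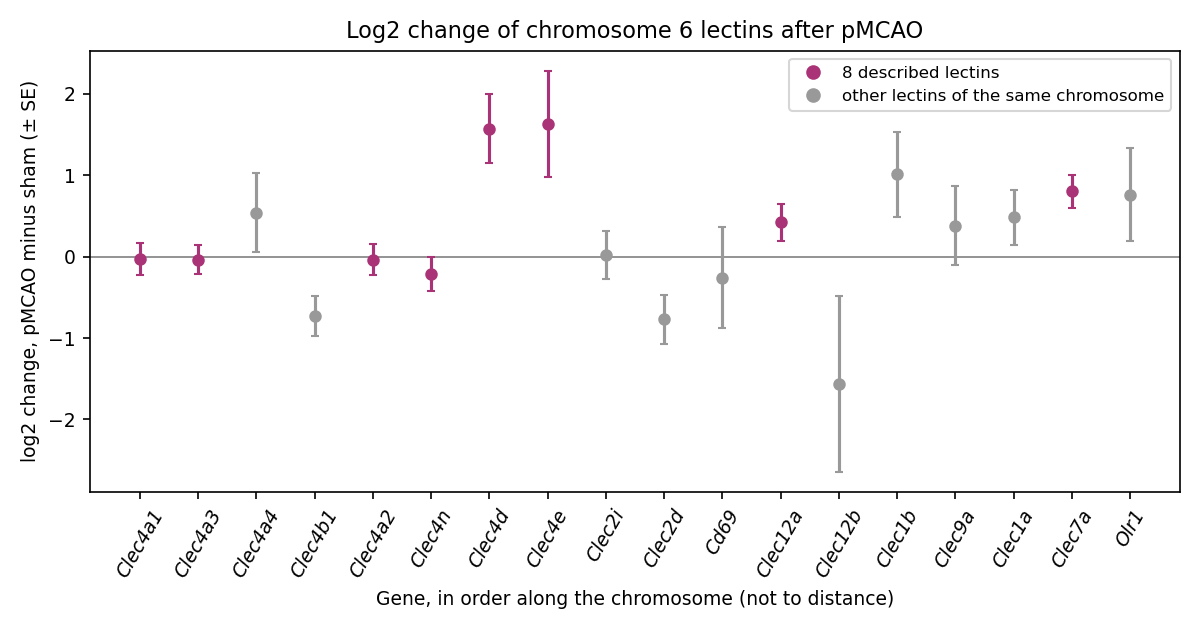
Log2 change (pMCAO minus sham) with its SE for the 8 lectins in purple and 10 other measured lectins of the same chromosome in grey, in gene order and not to distance. Clec4d (1.57) and Clec4e (1.63), at the end of the DCIR cluster, have the largest positive values, while Clec4a1, Clec4a3 and Clec4a2 lie within 0.04 of 0.

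Other lectin genes in, between or beside the 2 clusters on chromosome 6 had values on both sides of 0. Of 10 measured, 6 had higher and 4 lower means, 0 passed by edgeR, and 2 had an unadjusted p under 0.05, both lower. Of all genes 13.4% had such a p, 6.47% with lower means, and 12.6% did not overlap between groups. The median log2 change of the 10 was 0.20. Clec4b1, which lies between Clec4a3 and Clec4a2, was at 63.5, 60.1, 32.3 and 44.0 CPM in Sham 1 to Sham 4 and at 27.0, 32.2 and 31.2 CPM in pMCAO 1 to pMCAO 3. Its groups did not overlap, though Sham 3 and pMCAO 2 nearly touched (log2 change -0.73, SE 0.25, adjusted p = 0.237 by edgeR). Clec2d, a ligand of an inhibitory natural killer cell receptor, was at 584 ± 102 and 343 ± 183 CPM (log2 change -0.77, adjusted p = 0.285 by edgeR). Clec4a4 (DCIR2), at 3.03 ± 0.652 and 4.40 ± 0.805 CPM, and Clec1a, at 7.84 ± 1.70 and 10.9 ± 1.34 CPM, did not overlap between groups and had log2 changes of 0.54 (adjusted p = 0.662) and 0.48 (adjusted p = 0.565). The remaining log2 changes were 1.01 for Clec1b (the platelet receptor CLEC-2), 0.76 for Olr1 (the receptor of oxidized lipoprotein LOX-1), 0.38 for Clec9a (a dendritic cell receptor of dead cells, whose gene overlaps Clec1b), 0.02 for Clec2i, -0.26 for the activation antigen Cd69 and -1.56 for Clec12b. Their adjusted p were 0.422 to 0.984 by edgeR.

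Ratios of counts between lectins of the same cluster do not depend on the scaling of a library. Clec7a over Clec12a was 0.733, 0.770, 0.821 and 0.887 in Sham 1 to Sham 4. It was 0.975, 1.0 and 1.1 in pMCAO 1 to pMCAO 3. Clec4d over Clec4n was 0.326, 0.129, 0.144 and 0.0726 in sham libraries and 0.430, 0.734 and 0.470 after pMCAO. For both ratios all pMCAO libraries lay above all sham libraries. Clec4e over Clec4d ranged from 0.353 to 1.0 in sham libraries and from 0.553 to 1.19 after pMCAO, and Clec4a2 over Clec4a3 from 1.32 to 1.47 and from 1.27 to 1.5. For these the groups overlapped, and the last was the steadiest of the 4. The groups also overlapped for Clec4a1 over Clec4a3 (sham 1.19 to 1.7, pMCAO 1.09 to 1.95) and for Clec7a over Clec4a1, whose Sham 1 value of 0.559 was above the 0.52 of pMCAO 3. The ratios were chosen after the data were seen and are given with no test.

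**Figure D3:**
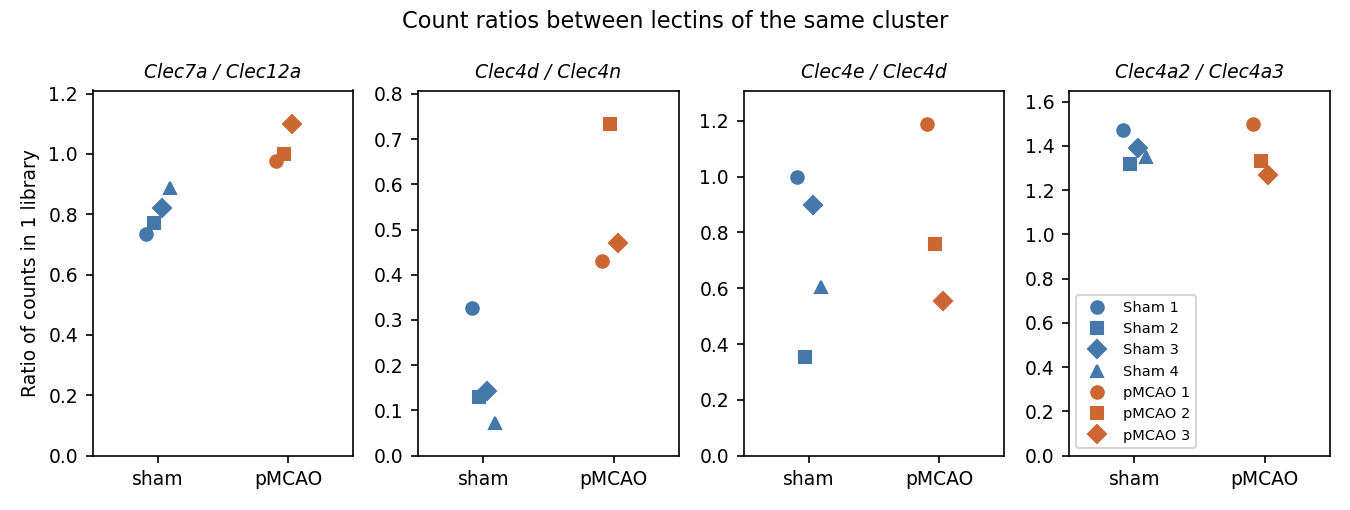
Ratio of raw counts of 2 lectins within each library, on axes that start at 0, with sham libraries in blue and pMCAO libraries in orange. Clec7a over Clec12a and Clec4d over Clec4n are higher in each pMCAO library than in each sham library, while Clec4e over Clec4d and Clec4a2 over Clec4a3 overlap between groups.

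Across the 7 libraries, likeness between genes was measured as the mean absolute difference between log2 CPM values, each centred on the gene's own mean, over 11588 genes of at least 5 CPM. Clec4a3 and Clec4a2 differed by 0.068, and each was the sixth most like gene to the other. Clec4d was the third most like gene to Clec4e, although the difference was larger, at 0.425, and Clec4e ranked only 50 among the genes most like Clec4d. Clec12a was the nearest of the 8 to Clec7a (0.173), at rank 36. Over all genes, Clec7a was most like Cd36, the scavenger receptor of fatty acids (0.102), and Zfp760 (0.109). Cd36 was at 988 ± 267 CPM in sham and 1540 ± 199 CPM in pMCAO libraries, and its groups did not overlap. Clec4d was most like F5, coagulation factor V (0.177), and Gm6377 (0.198), and Clec4e was most like Gm37468 (0.385) and Chil3 (0.400), a chitinase-like protein of monocytes and activated macrophages. Chil3 is on the monocyte marker list and was at 24.7 ± 16.8 and 114 ± 87.8 CPM. The nearest genes were Slc25a24 (0.094) and Gm14681 (0.107) for Clec12a, Dctn2 (0.050) and Sys1 (0.055) for Clec4n, and Dhps (0.057) and Pcyox1 (0.077) for Clec4a1. They were Rgs19 (0.042) and Cops5 (0.055) for Clec4a3, and Ggh (0.052) and Slc25a4 (0.053) for Clec4a2. With 7 libraries these are descriptions.

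Genes that carry the signal of the activating lectins mostly had lower means after pMCAO, and 0 of 19 passed by edgeR. Of the 19 adaptors and activating signalling genes 12 had lower and 7 higher means. An unadjusted p under 0.05 was found for 5, all lower (6.47% of all genes had such a p and a lower mean). The median log2 change was -0.22, and 0.19 with library sizes from pan-macrophage genes, a scaling that moved the median of all genes to 0.41. Without Sham 2, Sham 3, Sham 4 or pMCAO 3, 2 genes had such a p, and without pMCAO 3 the median was -0.08. Plcg2, the phospholipase that follows Syk, was at 109, 97.7, 98.0 and 94.7 CPM in Sham 1 to Sham 4 and at 65.4, 57.6 and 63.8 CPM in pMCAO 1 to pMCAO 3. Its values were tight within each group and far apart between them (log2 change -0.68, SE 0.17, adjusted p = 0.127 by edgeR). The adaptor Fcer1g was at 720 ± 210 and 598 ± 43.9 CPM (log2 change -0.27, adjusted p = 0.615), Syk at 223 ± 27.0 and 191 ± 43.1 CPM (-0.22, adjusted p = 0.634) and Card9 at 25.7 ± 8.12 and 18.6 ± 4.87 CPM (-0.46, adjusted p = 0.536).

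Of 12 inhibitory signalling genes, 9 had lower and 3 higher means and 0 passed by edgeR. Their median log2 change was -0.39 (0.05 on the pan-macrophage scale). An unadjusted p under 0.05 was found for 4 with lower and 1 with higher means (6.47% and 6.97% of all genes). The 5 became 1 without Sham 4 or pMCAO 1, 2 without pMCAO 3 and 3 without Sham 2. Csk, the kinase that holds Src-family kinases inactive, was at 80.6 ± 13.5 and 47.7 ± 13.6 CPM (log2 change -0.76, adjusted p = 0.192 by edgeR). The ubiquitin ligase Cblb was at 54.3 ± 7.55 and 76.1 ± 8.88 CPM (0.49, adjusted p = 0.284). The 9 partners and endogenous ligands had a median of -0.06 (0.37 on the pan-macrophage scale, 0.10 without pMCAO 3 and -0.24 without pMCAO 2), and 0 passed by edgeR or had an unadjusted p under 0.05. The integrin chain Itgb2 was at 258 ± 33.9 and 203 ± 71.1 CPM (-0.35, adjusted p = 0.503), and Sap130, the Mincle ligand, at 87.3 ± 9.41 and 76.9 ± 10.9 CPM (-0.18, adjusted p = 0.699). Macrophage genes in general had lower means in the same libraries: of 20 pan-macrophage markers 19 did, with a median of -0.37. Tyrobp is on that list and on the list of adaptors.

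Transcription factors and targets of the pathway went both ways. Of 21 measured, 13 had higher and 8 lower means and 0 passed by edgeR. In each direction 2 had an unadjusted p under 0.05 (6.97% of all genes with higher and 6.47% with lower means). The median of the 21 was 0.06 (0.52 on the pan-macrophage scale, -0.07 without scaling factors and -0.03 without Sham 1 or pMCAO 3). Ptgs2, the inducible cyclooxygenase, was at 10.4, 13.2, 12.8 and 8.49 CPM in Sham 1 to Sham 4 and at 40.5, 20.4 and 38.2 CPM in pMCAO 1 to pMCAO 3. The groups were well apart, and the log2 change was 1.56 (SE 0.30, adjusted p = 0.0576 by edgeR). The neutrophil chemoattractant Cxcl2 was at 222 to 275 CPM in sham and 367 to 500 CPM in pMCAO libraries (0.84, adjusted p = 0.0614). Of the NF-kB subunits with lower means, Nfkb2 was at 25.9 ± 5.80 and 12.9 ± 3.68 CPM (-1.0, adjusted p = 0.185) and Rela at 48.7 ± 9.13 and 34.7 ± 6.69 CPM (-0.49, adjusted p = 0.367), both chosen after their values were seen. The other subunits changed less, Relb by -0.31 (adjusted p = 0.759 by edgeR) and Nfkb1 by -0.03 (adjusted p = 0.951). Rel had a higher mean (0.21, adjusted p = 0.652).

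**Figure D4:**
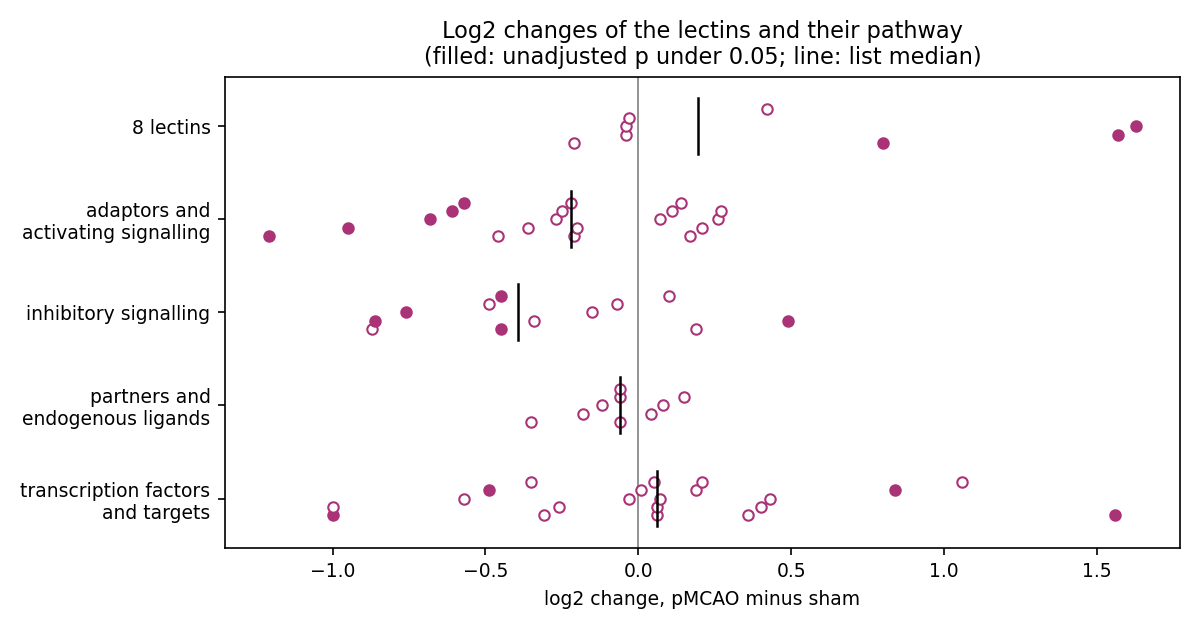
Log2 change (pMCAO minus sham) of each measured gene of the 8 lectins and of 4 lists of their signalling partners and targets, filled where the unadjusted p was under 0.05, with a line at the median of each list. The filled lectins are on the positive side, and the filled adaptors and activating signalling genes are on the negative side.

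Library sizes set by macrophage RNA shift the log2 changes of all genes in the same direction, so the medians of the lectins and of all genes had to move together. With library sizes taken from the summed counts of the 20 pan-macrophage genes, the median of all genes moved to 0.41 from -0.02, and the median of the 8 lectins to 0.63 from 0.19. Relative to that shift the DCIR paralogues were near all genes, at 0.44 for Clec4a1, 0.39 for Clec4a3 and 0.37 for Clec4a2, and Clec4n was below, at 0.18. The positive sign of these 4 follows from the shift of all genes. With these library sizes 1.1% of all genes passed. Clec7a was at 1.2 (adjusted p = 0.0508 by edgeR), Clec4d at 1.87 (adjusted p = 0.0493), Clec4e at 1.86 (adjusted p = 0.155) and Clec12a at 0.81 (adjusted p = 0.137).

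The authors' deposited table gave other sizes for the same genes, and called none of them at an FDR under 0.05. In it the log2 change was 2.48 for Clec4e (FDR 0.213), 1.37 for Clec4d (FDR 0.212) and 0.49 for Clec7a (FDR 0.337). In the authors' deposited table Clec4a1 was at -0.48 (FDR 0.357), Clec4n at -0.42 (FDR 0.511), Clec4a3 at -0.36 (FDR 0.468), Clec4a2 at -0.30 (FDR 0.584) and Clec12a at 0.06 (FDR 0.919). The direction of each gene was that of the fit to the counts. The model behind the deposited values is not given in the sources used here.

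**Figure D5:**
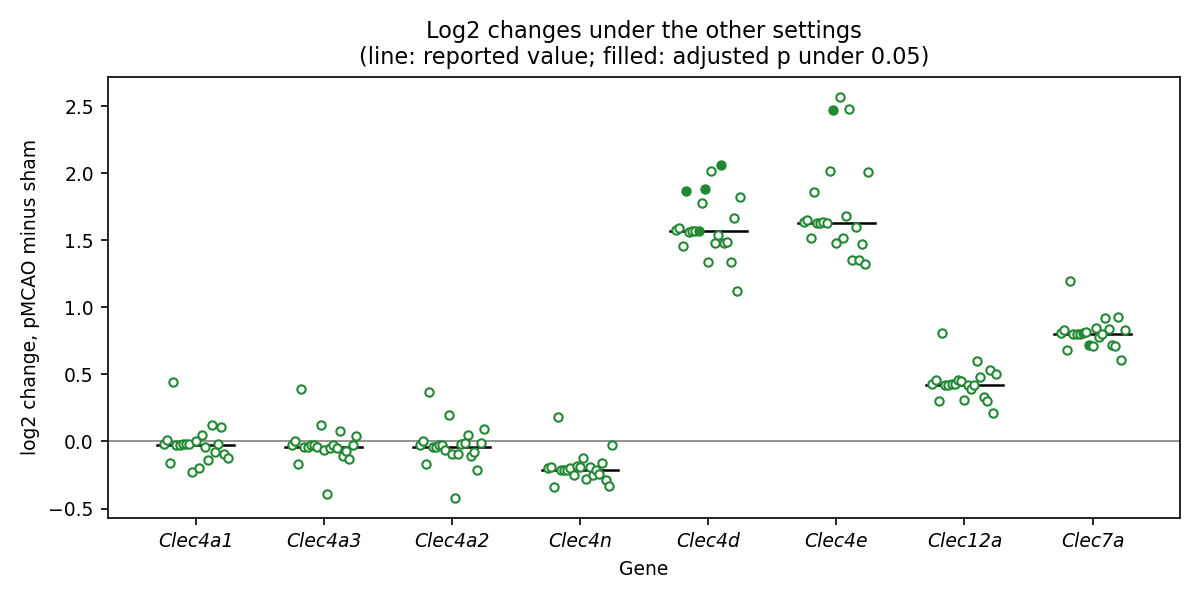
Log2 change (pMCAO minus sham) of each lectin under 21 other settings of the analysis (points), filled where the adjusted p was under 0.05, with a line at the reported value. Clec7a, Clec4d, Clec4e and Clec12a are above 0 in each of the settings plotted, and the other 4 lie on both sides of 0.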

How the data were processed

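RNA of sorted muscularis macrophages was sequenced in 7 libraries from 2.0 ng of total RNA with paired 100 base reads, per the labels' protocols. The read counts per gene are the authors', and per the submitters' processing notes STAR, featureCounts and limma were used on GRCm38 (mm10). Neither versions, strand setting nor annotation release is given in the sources used here. The deposited CPM equal count over library total, to within 0.0005. The log2 changes, p-values and FDR of the authors' deposited table come from their own fit. The table lists genes above 0.5 CPM in at least 4 of 7 libraries, so a gene present only after pMCAO would be missing.

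Raw counts were tested, two-sided, by robust quasi-likelihood F tests of edgeR 4.0.16 (R 4.3.3) with TMM factors and group as the only term. The filter on low counts removed none of the 17209 genes. The biological coefficient of variation was 43.6%. The edgeR fit was tested on simulated data, in which all changes were larger than those reported for these lectins. The simulation therefore does not show whether changes of the lectins' size would be called. Alternatives used DESeq2 1.42.0 and limma 3.58.1. Values are mean ± SD over 4 sham and 3 pMCAO libraries. A count of 3 corresponds to 0.0825 to 0.256 CPM. Counting error understates the error of amplified reads without molecular identifiers. Likeness used a pseudocount of 0.5 CPM. Exon lengths and positions are from GENCODE M21, which placed 99.4% of gene identifiers on the same chromosome.

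The members, lists and naming rule were chosen with earlier results of these data known. The rule names the 8 lectins, the other chromosome 6 lectins, the 2 genes of smallest p per pathway list, 4 sort markers and the 2 most like genes per lectin. Tyrobp, Fcer1g, Syk, Card9, F13a1, Saa3, Fabp4, Cfd and the NF-kB subunits are named beyond it, after their values were seen. So are S100a8, S100a9, Csf3r, Mmp9, Cxcr2 and Mmp8. A result for 1 gene under the rule is not reported here. The marker lists for dendritic cells (median log2 change -0.06), smooth muscle (-0.50), T cells (-0.55), B cells (-0.23) and mast cells (0.18) were also read, as was that of adipocytes (2.84, 2 genes measured).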

Additional observations from a re-analysis of the deposited data

How the results depend on the processing

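Clec7a, Clec4d, Clec4e and Clec12a kept their direction under all 21 other settings, and Clec4n under 20, Clec4a2 and Clec4a3 under 16 and Clec4a1 under 15. For the last 4 no setting gave an unadjusted p under 0.05. Direction was counted on rounded values. Clec4a2 and Clec4a3 rounded to 0 with upper-quartile factors, which was not counted as kept. Clec7a ranged from 0.68 to 1.2 over settings with all libraries and from 0.61 to 0.93 leaving out each library, with an unadjusted p under 0.05 in each of the 21. Clec4d ranged from 1.34 to 2.02 and, leaving out each library, from 1.12 to 2.06, Clec4e from 1.48 to 2.57 and from 1.32 to 2.48. An unadjusted p under 0.05 was found in each of the 21 for Clec4d, but only in 14 for Clec4e and 3 for Clec12a.

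The number of lectins past the threshold was 0 by edgeR, 1 with library sizes from pan-macrophage genes (Clec4d), 2 with DESeq2, 3 by voom with quality weights (Clec4d, adjusted p = 0.0102, Clec4e, 0.0139, and Clec7a, 0.0322), and 0 to 1 leaving out each library. Over all genes it was 17 (12 higher, 5 lower) by edgeR, 34 with upper-quartile factors, 29 without scaling factors (14 higher, 15 lower, median of all genes -0.14), 190 with pan-macrophage library sizes (188 higher, 2 lower), 75 over genes of at least 5 CPM, 470 with DESeq2, 35 with limma-voom, 818 with quality weights, 43 after thinning, 98 at an adjusted p under 0.10, and 0 to 100 leaving out each library (9 without Sham 4, 47 without Sham 1 or Sham 2, 7 without pMCAO 3, 100 without pMCAO 2, and 0 without pMCAO 1, with 1987 at an unadjusted p under 0.05 by edgeR). With a covariate of stromal markers it was 0 (996 at an unadjusted p under 0.05 by edgeR). In that fit the log2 changes were 0.85 for Clec7a (SE 0.34, adjusted p = 0.855 by edgeR), 2.02 for Clec4d (SE 0.69, 0.842) and 2.57 for Clec4e (SE 1.17, 0.857). Clec4a2 was at -0.42 (SE 0.30) and Clec4a3 at -0.39 (SE 0.28). An unadjusted p under 0.05 was left for 2 adaptors and activating signalling genes and for 1 inhibitory signalling gene. Adaptors and activating signalling genes had 1 call with DESeq2 and 1 with quality weights, and inhibitory signalling genes 1 with quality weights. Transcription factors and targets had 1 with upper-quartile factors, 2 with pan-macrophage library sizes, 2 over genes of at least 5 CPM, 3 with DESeq2, 3 with quality weights, 1 after thinning, 2 at an adjusted p under 0.10, and 0 to 1 leaving out each library (1 without pMCAO 2). The cause of these differences was not tested.

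Replicate numbers 1 to 3 are shared by both groups. The deviations of same-numbered libraries correlated at -0.10, 0.01 and 0.18 over 11588 genes, and those of the other pairs at -0.14 to 0.14. Of the pMCAO libraries only pMCAO 3 correlated best with its own number. With so few libraries these values cannot decide whether the numbers pair the samples. With a replicate block 0 lectins and 21 genes passed by edgeR, and the log2 changes were 0.71 for Clec7a (adjusted p = 0.319), 1.34 for Clec4d (0.313) and 1.48 for Clec4e (0.484). No sham library stood apart from the other 3 by Dixon's criterion for any of the 46 genes examined, which are those of the naming rule. Groups of 3 and genes named beyond the rule were not examined. Of the latter, S100a8 was at 29.5 CPM in Sham 1 and at 0.151 to 1.18 CPM in the other sham libraries. At 67 counts or more, counting error is small beside the spread between libraries for every lectin.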
